A study of Mus musculus with 8 samples.

Results

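A set of 37 mouse genes of neuronal differentiation was followed in cultured neural stem and progenitor cells with and without Kat7, the gene of a histone acetyltransferase. The set was a list of names, and all of its genes were found among the 27179 genes of the deposited table. By role they comprised 10 transcription factors, 6 RNA-binding proteins, 16 proteins of the neuronal cytoskeleton and growth cone, and 5 proteins of synaptic vesicles and their release. The study compared 2 genotypes, each with 4 libraries. The Kat7 deleted group was Kat7lox/lox NesCreT/+ and the Kat7 intact group was Kat7+/+ NesCreT/+, so both carried the Cre transgene, which is driven by the Nestin promoter that is active in neural progenitors. Every library came from the neural stem and progenitor cells of a separate C57BL/6 fetus at E14.5, grown as free-floating neurospheres in a proliferation medium. The 2 genotypes shared no litter, and the part of the litter cannot be told apart from that of the genotype. Deleted replicates 3 and 4 came from the same litter, and so did intact replicates 1 and 2. The tests treat these pairs as independent.

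Neurons are made in steps. Proneural factors of the basic helix-loop-helix family commit a dividing progenitor to the neuronal fate, and a later wave of factors holds that choice. The young neuron then makes RNA-binding proteins that change how transcripts are spliced and stabilised, builds the microtubules and intermediate filaments of its axon and dendrites, and finally assembles the machinery that releases transmitter. In a proliferation medium most neurosphere cells remain progenitors, and neurons are usually a minority.

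The libraries held between 10687817 and 22444359 counts, so that 1 read equalled 0.0436 to 0.0918 CPM, the read count scaled to a common depth with TMM factors. Kat7 itself stood at 77.1 to 92.1 CPM in the intact libraries. Its level in the deleted ones was 26.4, 0.367, 13.9 and 0.087 CPM, in the order of replicates 1 to 4. Deleted replicates 1 and 3 thus kept 31.4% and 16.5% of the intact mean, whereas replicates 2 and 4 kept 0.437% and 0.104%. The mean difference was -5.08 on the log2 CPM scale (exact two-sided permutation test, p = 0.0286, the smallest value that 4 against 4 libraries can give), and with edgeR, whose adjusted p was 0.128, Kat7 was not called. Transcripts of the mitochondrial genome took 18.95% to 23.5% of the counts in the intact libraries. The shares in the deleted ones, replicates 1 to 4, were 29.9%, 18.95%, 17.1% and 34.4%. Of 13498 genes tested with edgeR's quasi-likelihood test, 688 were higher and 378 lower in Kat7 deleted cells at a Benjamini-Hochberg adjusted p under 0.05, the threshold for a called gene throughout. With library totals in place of TMM factors the split was 309 higher and 364 lower, and the median over all genes of the log2 fold change shifted by -0.14, from 0.05 to -0.09.

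Some markers of progenitors were abundant in the cultures and others were not. Nes, encoding the intermediate filament nestin, averaged 1580 CPM in intact and 1489 CPM in deleted libraries, and Sox2, a stem cell transcription factor, 221 and 190 CPM. By contrast, 9 of the 37 neuronal genes stayed under 1 CPM in every library, and 27 had enough reads to be tested. The 10 that had not were the transcription factor genes Neurog1, Neurog2, Neurod2, Nhlh1, Myt1l and St18, the gene of the neuronal nuclear antigen Rbfox3, and the cytoskeletal genes Stmn2, Stmn4 and Nefm. Levels among the tested genes spanned a wide range. Expressed per kilobase of transcript (RPKM, from the deposited gene lengths), Map2, whose protein binds dendritic microtubules, had 187 ± 3.497 (SD, n = 4) in intact cells, and Gap43, a growth cone protein, 81.5, while Neurod1 had 1.47.

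Of the 27 tested genes, 6 fell in Kat7 deleted cells and none rose. These were Neurod1 and Myt1 among the transcription factors, Elavl2, Elavl3 and Elavl4 among the RNA-binding proteins, and Crmp1, which relays guidance signals to the growth cone. The share called lower was 22.2%, against 2.80% of all genes tested, and the share called higher was 0 against 5.10%. In either direction 7.90% of all genes were called. At an unadjusted p under 0.05, 9 of the neuronal genes were lower and 2 higher, against 1408 and 2131 of all 13498 genes. DESeq2 called 9 lower and 1 higher, against 886 and 1317 of 22195 genes. With limma voom 6 were lower and 0 higher, against 479 and 600 of 13498 genes. Those 6 took in Syt1 but not Elavl4. Fitted log2 fold changes lay below 0 for 18 genes and above 0 for 9, with a median of -0.47 against 0.05 over all genes tested. In bulk cultures a lower level can come from fewer cells of a type or from less RNA per cell, and these cannot be told apart here. The count of 6 was 3 without intact replicate 1, 3 or 4, and 4 without intact replicate 2 or deleted replicate 4. It was 9 without deleted replicate 2, where 922 of 13782 genes in all were called lower. Genes called in all, in either direction, ranged from 189 to 2182 with a single library left out. Littermates summed into 1 library left 1 gene called, Crmp1.

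**Figure D1:**
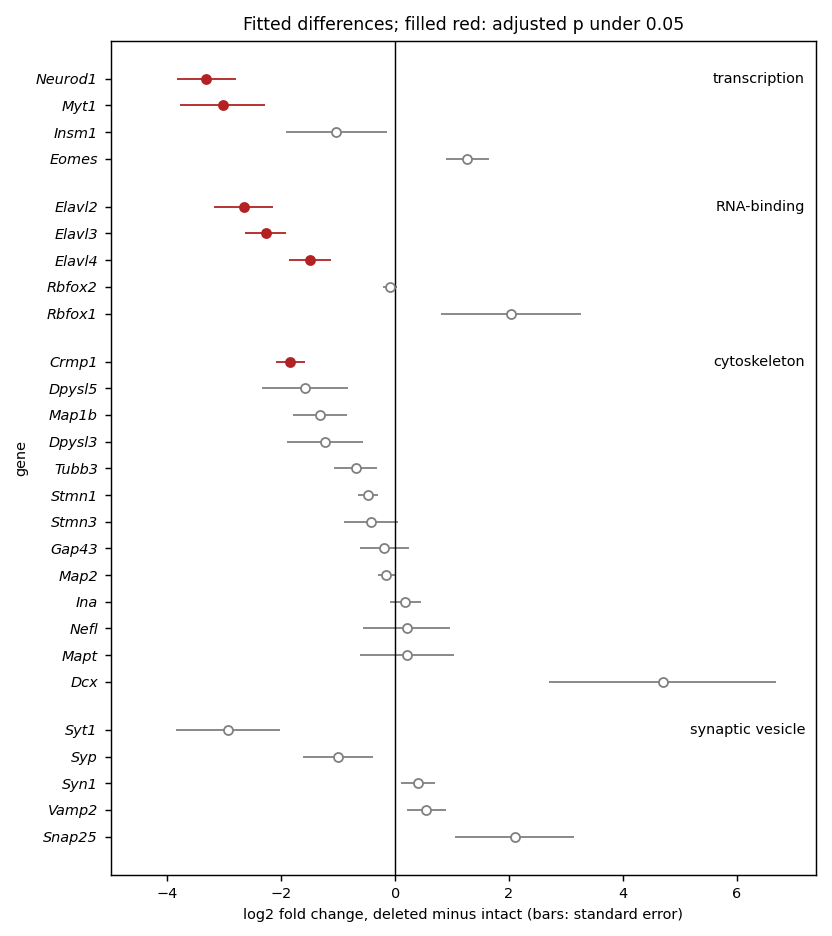
Fitted log2 fold change (deleted over intact) of the 27 tested neuronal genes, grouped by role, with the standard error as bars. Filled red points are the 6 genes with an adjusted p under 0.05, all below 0, and Dcx has the widest bar, 4.70 ± 1.99.

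Libraries could also be compared without a fit. In 9 of the 27 genes every deleted library lay below every intact one (33.3%, against 9.21% of all genes), namely Neurod1, Myt1, Elavl2, Elavl3, Stmn1, Crmp1, Dpysl3, Dpysl5 and Syt1. Every deleted library lay above every intact one in 1 gene, Eomes (3.70%, against 10.7% of all genes). Each deleted library taken alone had 18 or 19 of the 27 genes below the whole intact range and 5 to 7 above it. Between 32.4% and 37.8% of all genes were below the intact range in 1 deleted library, and 33.9% to 39.4% above it. The deleted cultures differed more from one another than the intact cultures did. The standard deviation of log2 CPM was larger among deleted than among intact libraries for 25 of the 27 genes, with medians of 0.96 and 0.28, and it was larger for 86.6% of all genes, with medians of 0.38 and 0.17.

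**Figure D2:**
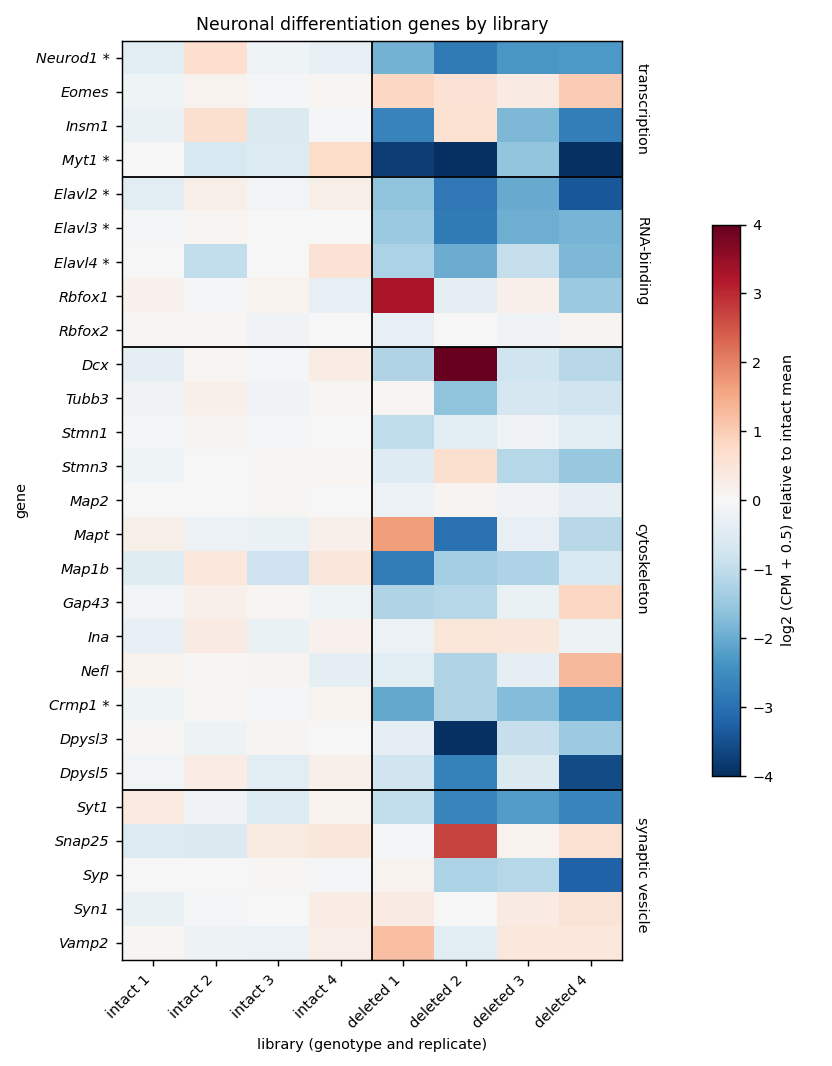
Level of each of the 27 tested neuronal genes in the 8 libraries, as log2 of (CPM + 0.5) over (intact mean + 0.5), grouped by role, with called genes marked by an asterisk. The colour scale ends at -4 and 4. Beyond it lie Dcx (6.12), Myt1 (-4.78) and Dpysl3 (-4.46) in deleted replicate 2, and Myt1 in replicate 4 (-4.03).

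Among the transcription factors, Neurod1 and Myt1 fell, and the proneural factors that act before them were almost unread in either genotype. Neurog1 and Neurog2, which start neurogenesis in the embryonic brain, had at most 1 and 2 reads in any library. Neurod2 and Nhlh1, related factors of young neurons, had at most 1 and 0 reads. A count of 0 allows up to 3 reads, or 0.131 to 0.275 CPM depending on the library, so low expression of these genes was not detectable at this depth.

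Neurod1 encodes a basic helix-loop-helix factor that acts after the neurogenins and drives the maturation of neurons. Its locus on chromosome 2 (79452637 to 79456636, GRCm38.p6) gave 37, 102, 65 and 64 reads in intact replicates 1 to 4 and 10, 1, 6 and 4 reads in deleted replicates 1 to 4. In CPM these were 2.64, 6.10, 3.18 and 2.79 against 0.634, 0.0918, 0.329 and 0.348. Every deleted library was below every intact one. The means were 3.68 ± 1.63 and 0.351 ± 0.222 CPM (SD, n = 4 each), a log2 fold change of -3.32 ± 0.52 (SE), or 9.97-fold lower (edgeR, adjusted p = 0.0104). Its exons share 201 bases on the same strand with Cerkl, a gene looked up after the values were seen, which had at most 0.261 CPM in any library.

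Myt1 encodes a zinc finger factor that is made in differentiating neurons and also in progenitors of oligodendrocytes. Its values were 66.5, 42.5, 45.3 and 110.0 CPM in the intact and 4.37, 1.93, 21.9 and 3.57 CPM in the deleted libraries. The groups did not overlap, but deleted replicate 3 stood well above the other deleted libraries. The log2 fold change was -3.03 ± 0.74, or 8.17-fold lower (edgeR, adjusted p = 0.0452), and Myt1 was the transcription factor with the highest level per length, 10.3 RPKM in intact and 1.24 RPKM in deleted cells (chromosome 2, 181763332 to 181827775). The call was lost without intact replicate 1, 2, 3 or 4 (adjusted p 0.106, 0.103, 0.0940 and 0.118) and without deleted replicate 1 (0.0641) or 4 (0.0864). Without deleted replicate 3 the log2 fold change was -4.31. Of its relatives, Myt1l, which helps hold neuronal identity, had 3, 5, 7 and 10 reads in the intact and 6, 3, 2 and 1 reads in the deleted libraries. St18 had 6, 16, 7 and 12 reads against 3, 1, 1 and 1, and was tested by DESeq2 alone (log2 fold change -2.43, adjusted p = 0.0423).

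Eomes and Insm1 mark intermediate progenitors, the dividing cells between stem cells and neurons. Eomes stood at 0.285, 0.478, 0.342 and 0.436 CPM in the intact libraries and 1.08, 0.826, 0.604 and 1.30 CPM in the deleted ones. All 4 deleted libraries were above all intact ones, but the difference of 1.27 ± 0.38 on the log2 scale did not pass the threshold (edgeR, adjusted p = 0.0732). Insm1 was read at 5.203, 10.3, 4.06 and 5.98 CPM in the intact and 0.571, 10.1, 1.48 and 0.522 CPM in the deleted libraries. Deleted replicate 2 sat in the intact range and the other 3 below it. Its log2 fold change was -1.03 ± 0.89 (adjusted p = 0.498) over all libraries and -2.85 (adjusted p = 0.0140) without deleted replicate 2.

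**Figure D3:**
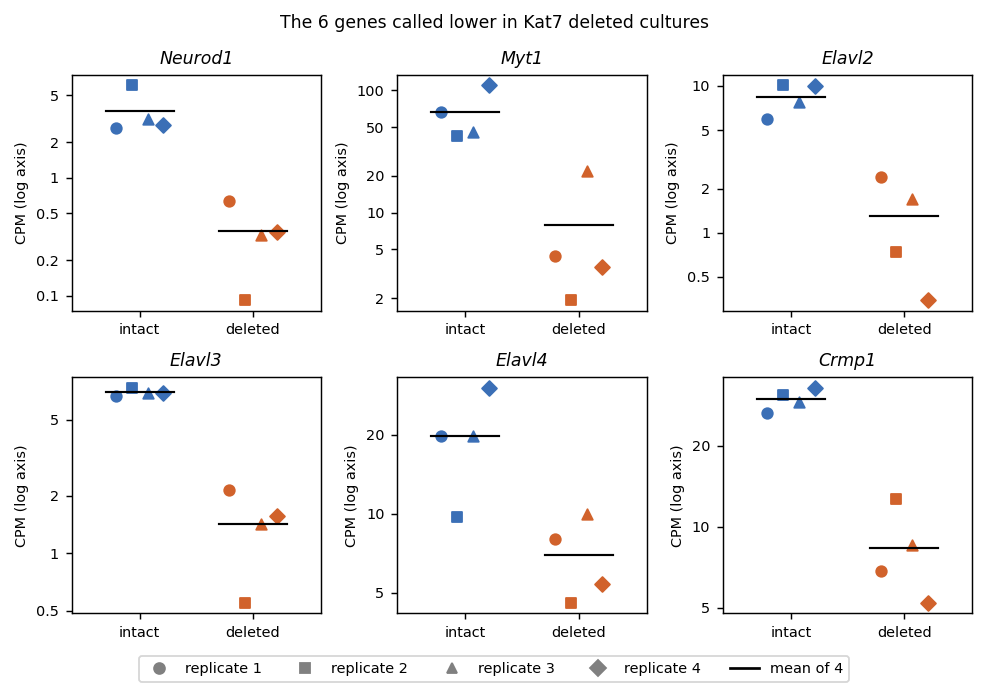
CPM on a log axis of the 6 called genes in each library, with a different mark for each replicate and a line at the mean of 4. Intact and deleted libraries separate in Neurod1, Myt1, Elavl2, Elavl3 and Crmp1, and overlap in Elavl4, where intact replicate 2 (9.69) is below deleted replicate 3 (9.99).

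All 3 neuronal members of the ELAV family fell. Elavl2, Elavl3 and Elavl4 encode the proteins HuB, HuC and HuD, which bind AU-rich stretches of transcripts in neurons and steer their splicing and stability. The promoters of these genes, with that of Neurod1, are shown because the 3 fell together and Neurod1, which also fell, encodes a factor of the family that binds the E-box. Each sequence runs from 250 bases before to 50 bases after the outermost start among the matched promoters of its gene (GRCm38.p6, minus strand, printed 5′ to 3′). For Neurod1 this start is the end of the locus as given in the text, and for the 3 Elavl genes it lies inside the locus. Capitals mark the E-box on either strand in the forms CAGATG or else CAGCTG or else CAGGTG.
Neurod1 (chr2:79456587-79456886): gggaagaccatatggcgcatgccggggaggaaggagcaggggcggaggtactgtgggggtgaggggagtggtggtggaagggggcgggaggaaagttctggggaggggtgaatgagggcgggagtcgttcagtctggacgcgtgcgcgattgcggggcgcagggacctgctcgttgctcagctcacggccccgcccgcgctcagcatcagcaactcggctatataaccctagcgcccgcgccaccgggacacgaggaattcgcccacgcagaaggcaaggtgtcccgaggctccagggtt
Elavl2 (chr4:91399935-91400234): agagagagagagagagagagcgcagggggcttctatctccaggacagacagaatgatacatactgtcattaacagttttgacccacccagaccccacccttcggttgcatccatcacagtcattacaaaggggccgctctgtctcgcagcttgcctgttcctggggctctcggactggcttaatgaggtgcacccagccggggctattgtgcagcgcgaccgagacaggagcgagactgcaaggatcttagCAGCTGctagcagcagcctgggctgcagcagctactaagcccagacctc
Elavl3 (chr9:22051974-22052273): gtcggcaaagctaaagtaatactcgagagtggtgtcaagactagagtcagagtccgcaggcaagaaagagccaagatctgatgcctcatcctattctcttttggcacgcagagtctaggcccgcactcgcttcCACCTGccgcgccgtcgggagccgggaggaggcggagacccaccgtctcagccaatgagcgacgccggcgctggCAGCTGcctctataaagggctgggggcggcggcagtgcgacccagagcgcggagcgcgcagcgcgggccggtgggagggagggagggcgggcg
Elavl4 (chr4:110351862-110352161): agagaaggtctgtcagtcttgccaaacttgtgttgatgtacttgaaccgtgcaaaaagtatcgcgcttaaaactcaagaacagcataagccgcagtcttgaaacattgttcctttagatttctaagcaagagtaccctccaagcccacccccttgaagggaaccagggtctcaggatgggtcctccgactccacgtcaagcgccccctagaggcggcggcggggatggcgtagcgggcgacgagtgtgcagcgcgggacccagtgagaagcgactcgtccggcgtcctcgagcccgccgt
Elavl2 held CAGCTG, Elavl3 held CAGCTG and, on the other strand, CAGGTG (read as CACCTG), and neither Neurod1 nor Elavl4 held one in this window, though the 3 further RefSeq starts of Elavl4 all held at least 1. Of the 5 further starts of Elavl2, 2 held CAGCTG and 3 held none. The windows of those 2 overlap and hold the same CAGCTG. Likewise, 2 of the 3 further Elavl4 windows overlap and hold the same sites. Of the other genes that fell, Myt1 held none at its 3 starts, and Crmp1 held CAGGTG at 1 of its 2 starts. RefSeq promoters were matched for 24 of the 37 neuronal genes, with 42 starts. CAGATG was found in 23.8% of those 42 and in 17.2% of all 32851 promoters, CAGCTG in 23.8% and 16.3%, and CAGGTG in 14.3% and 20.2%. Windows of neighbouring starts can overlap, so these shares can count a single site more than once. The general E-box CANNTG, which takes in these forms, was found in 66.7% and 72.3%. Both strands were searched, and the specific forms cannot overlap one another. A match describes these letters only.

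Elavl2 (chromosome 4, 91211533 to 91400108) stood at 5.99, 10.1, 7.73 and 9.94 CPM in the intact and 2.41, 0.734, 1.70 and 0.348 CPM in the deleted libraries. The highest deleted library was below the lowest intact one. The log2 fold change was -2.66 ± 0.52, or 6.33-fold lower (edgeR, adjusted p = 0.0215). Leaving out intact replicate 1, 2, 3 or 4 lost the call, with adjusted p of 0.0542, 0.0791, 0.0628 and 0.0758. Elavl3 (chromosome 9, 22015005 to 22052146), made in neurons, had 6.70, 7.36, 6.90 and 6.93 CPM in the intact and 2.16, 0.551, 1.43 and 1.57 CPM in the deleted libraries. The intact libraries lay close together, with an SD of 0.276 around 6.97 CPM, and the deleted ones were all far below. The log2 fold change was -2.27 ± 0.36, or 4.83-fold lower (edgeR, adjusted p = 0.0116), and no single library's omission lost the call. Elavl3 exons share 256 bases on the same strand with Gm49318, which was not in the deposited table.

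Elavl4 (chromosome 4, 110203737 to 110351939) was read at 19.7, 9.69, 19.8 and 30.1 CPM in the intact and 7.99, 4.59, 9.99 and 5.39 CPM in the deleted libraries. Here the groups overlapped in 1 pair, with intact replicate 2 just under deleted replicate 3. The log2 fold change was -1.496 ± 0.37, or 2.82-fold lower (edgeR, adjusted p = 0.0444). The call was lost without intact replicate 1 (adjusted p = 0.106), 3 (0.109) or 4 (0.117) and without deleted replicate 4 (0.0928). Limma voom did not call Elavl4, whether plain, with sample weights (adjusted p = 0.189) or with litter as a random block (0.136). The adjusted p was also above the threshold in edgeR after summing littermates (0.0848). The same held for the replicate block (0.0622) and for the fit without both deleted replicates 1 and 4 (0.124). Elavl1, the paralog that most cell types express, is no member of the list and was looked up after the values were seen. It had 124 to 132.5 CPM in the intact and 92.7 to 130.2 CPM in the deleted libraries, a log2 fold change of -0.24 ± 0.13 (adjusted p = 0.271).

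None of the Rbfox splicing factor genes was called by edgeR. Rbfox2, the form also made outside neurons and the RNA-binding gene of the list with the highest level per length, had 80.3, 80.6, 69.8 and 78.7 CPM in the intact and 61.4, 76.4, 70.6 and 83.7 CPM in the deleted libraries. The groups overlapped, and the log2 fold change was -0.08 ± 0.12 (adjusted p = 0.705). Rbfox1 had 1.07, 0.837, 1.03 and 0.611 CPM in the intact and 12.7, 0.551, 1.10 and 0 CPM in the deleted libraries. Deleted replicate 1 alone, with 201 reads, was high. The fitted log2 fold change of 2.04 ± 1.23 (adjusted p = 0.326) was -0.59 without it. Rbfox3, whose product is the mature neuron antigen NeuN, had 1, 7, 3 and 12 reads in the intact and 1, 89, 13 and 34 reads in the deleted libraries. Deleted replicate 2 held most of them, at 8.17 CPM, and replicate 1 had a single read, as did intact replicate 1. Rbfox3 was left out by the count filter, DESeq2 gave a log2 fold change of 3.32 (adjusted p = 0.0189), and without deleted replicate 1 it entered the edgeR test at 3.66 (adjusted p = 0.0336).

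Of the 16 cytoskeletal genes 13 were tested, and Crmp1 was called. It encodes a collapsin response mediator, a cytoplasmic protein that binds tubulin and carries semaphorin signals in the growth cone. Crmp1 (chromosome 5, 37242058 to 37292163) had 26.6, 31.0, 29.1 and 32.9 CPM in the intact and 6.85, 12.7, 8.57 and 5.22 CPM in the deleted libraries. The highest deleted library was far below the lowest intact one. Its log2 fold change of -1.85 ± 0.26, or 3.59-fold lower (edgeR, adjusted p = 0.00801), was called in every one of the 24 settings compared, with an adjusted p of at most 0.045.

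Its relatives Dpysl3 and Dpysl5 also had no overlap between genotypes but were not called. Dpysl3 stood at 31.8, 26.4, 33.3 and 31.4 CPM in the intact and 23.9, 0.918, 16.1 and 10.96 CPM in the deleted libraries. The deleted libraries ranged from just under the intact ones to near 0, and the log2 fold change was -1.23 ± 0.66 (adjusted p = 0.273). Dpysl5 had 6.84, 9.21, 5.28 and 8.59 CPM against 4.06, 0.734, 4.83 and 0.174 CPM. Deleted replicates 2 and 4 were again the low ones, with replicates 1 and 3 close to the intact range (log2 fold change -1.58 ± 0.76, adjusted p = 0.223).

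The tubulin and stathmin genes gave smaller differences. Tubb3, the neuronal beta-tubulin used to stain young neurons, had 4.70, 6.04, 4.70 and 5.41 CPM in the intact and 5.58, 1.38, 3.07 and 2.78 CPM in the deleted libraries. Deleted replicate 1 was in the intact range and the other 3 below it (log2 fold change -0.69 ± 0.38, adjusted p = 0.284). Stmn1, a stathmin that destabilises microtubules and is also made in dividing cells, had 54.6, 60.0, 53.9 and 54.7 CPM against 27.5, 41.6, 50.7 and 40.9 CPM. All deleted libraries were lower, but the log2 fold change of -0.47 ± 0.17 did not pass the threshold (adjusted p = 0.128). Stmn3 had 5.84 to 7.07 CPM in the intact libraries and 4.50, 10.6, 2.75 and 2.00 CPM in the deleted ones. Deleted replicate 2 was above the intact range and the others below, and the log2 fold change was -0.43 (adjusted p = 0.599) with it and -1.10 (adjusted p = 0.0429) without it. Stmn2 had 1 read in 1 intact library and none elsewhere, and Stmn4 had 5, 10, 14 and 10 reads in the intact and 1, 0, 0 and 6 reads in the deleted libraries.

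The abundant microtubule-associated protein genes overlapped between genotypes or fell short of the threshold. Map2, the highest of the list per length, had 1010.1, 1032, 1056 and 1024 CPM in the intact and 871, 1106, 945 and 778 CPM in the deleted libraries. Only deleted replicate 2 was above the intact range, and the log2 fold change was -0.16 ± 0.15 (adjusted p = 0.545), with 187 ± 3.497 and 168 ± 25.1 RPKM. Map1b, which acts in growing axons, had 48.8, 91.3, 38.5 and 93.6 CPM against 9.38, 26.3, 28.9 and 44.5 CPM. Deleted replicate 4 lay above intact replicate 3 (log2 fold change -1.32 ± 0.47, adjusted p = 0.118). Gap43 had 94.3 to 122 CPM in the intact libraries and 46.0, 48.1, 88.6 and 192 CPM in the deleted ones. Deleted replicate 4 was above and the other 3 below the intact range, and the log2 fold change of -0.19 (adjusted p = 0.814) was 0.03 without deleted replicate 1 and 0.02 without deleted replicate 2.

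Neurofilament genes were not called. Ina, the filament subunit made earliest in neurons, had 4.92 to 8.07 CPM in the intact and 5.33 to 8.997 CPM in the deleted libraries (log2 fold change 0.18 ± 0.27, adjusted p = 0.721). Its exons overlap those of Nt5c2 by 456 bases on the opposite strand, and the strand setting of the counting is not given in the sources used here. Nefl had 0.998, 0.897, 0.978 and 0.567 CPM in the intact and 0.507, 0.0918, 0.549 and 2.87 CPM in the deleted libraries. Deleted replicate 4 alone was high, and the log2 fold change was 0.20 (adjusted p = 0.891) with it and -1.07 without it. Nefm had 4 to 8 reads in the intact and 1 to 9 reads in the deleted libraries.

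A single deleted library set the value of a few genes. Dcx, on the X chromosome, encodes doublecortin, which stabilises microtubules in migrating neurons. It had 0.641, 1.02, 0.880 and 1.26 CPM in the intact and 0.127, 100.6, 0.329 and 0.174 CPM in the deleted libraries. Deleted replicate 2 held 1096 reads, and the other 3 deleted libraries were all below the intact range. The fitted log2 fold change was 4.70 ± 1.99 (adjusted p = 0.178) over all libraries and -2.11 (adjusted p = 0.0273) without deleted replicate 2. Mapt, the gene of the axonal protein tau, had 14.4, 10.3, 10.2 and 14.2 CPM in the intact and 40.2, 1.10, 9.72 and 5.48 CPM in the deleted libraries. Here deleted replicate 1 was high, replicate 2 lowest, and the log2 fold change of 0.21 ± 0.82 (adjusted p = 0.896) was -1.16 without replicate 1. The high library was thus deleted replicate 1 for Rbfox1 and Mapt, 2 for Dcx, Rbfox3 and Snap25, and 4 for Gap43 and Nefl. This list is not complete. Among other genes, replicate 2 was also the highest deleted library for Insm1 and Stmn3, and replicate 1 for Syp and Vamp2.

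**Figure D4:**
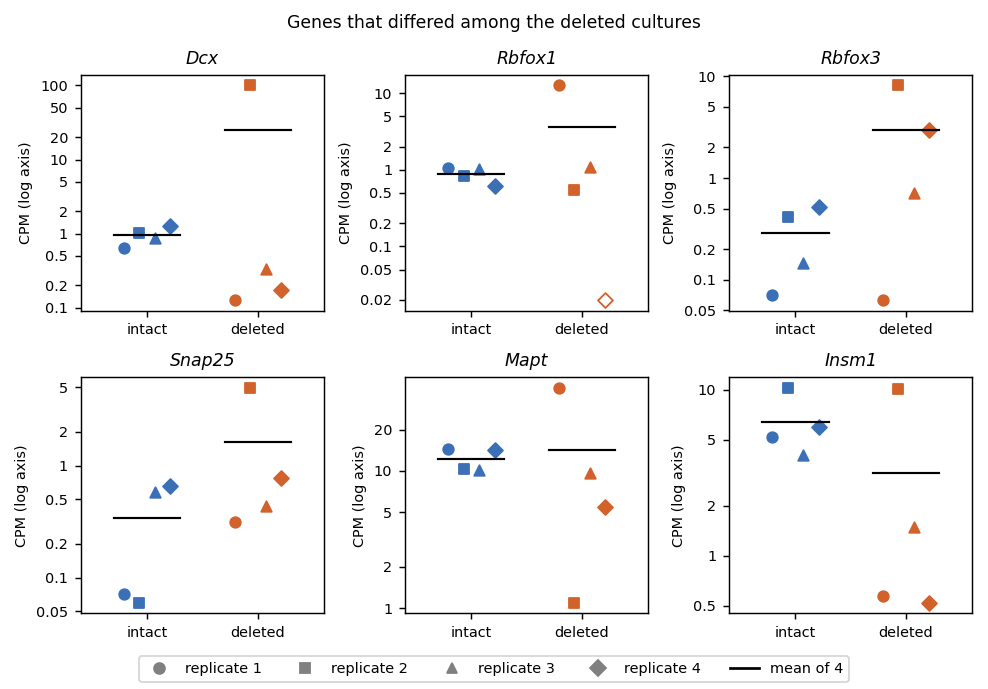
CPM on a log axis of Dcx, Rbfox1, Rbfox3, Snap25, Mapt and Insm1 in each library, with 1 mark per replicate. An open symbol at the bottom is a library with 0 reads (Rbfox1, deleted replicate 4). In each gene 1 deleted library lies far from at least 1 other deleted library, as for Dcx with 100.6 CPM in replicate 2 and 0.127 CPM in replicate 1.

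The 5 synaptic vesicle genes were all tested and none was called. At an unadjusted p under 0.05 there was 1 lower gene, Syt1, which DESeq2 and limma voom also called. Syt1, the calcium sensor of transmitter release, had 3.56, 2.33, 1.61 and 2.88 CPM in the intact and 1.08, 0, 0.165 and 0 CPM in the deleted libraries. All deleted libraries were lower, with 17, 0, 3 and 0 reads. The log2 fold change was -2.93 ± 0.91 (edgeR, adjusted p = 0.0849), and -5.06 (adjusted p = 0.00813) without deleted replicate 1. Syp, a vesicle membrane protein, had 9.98, 10.05, 10.3 and 9.64 CPM against 11.03, 3.86, 4.28 and 0.609 CPM. The intact libraries agreed closely, whereas the deleted ones ran from above the intact range to near 0 (log2 fold change -1.005 ± 0.62, adjusted p = 0.338). The exons of Syp overlap the antisense gene Gm14703 by 875 bases.

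Vamp2, the vesicle partner in membrane fusion, had the highest level per length of these 5 genes over all libraries, with 2.93 RPKM in intact and 4.29 RPKM in deleted cells. It stood at 6.70, 5.50, 5.38 and 7.81 CPM in the intact and 15.2, 4.59, 8.62 and 8.70 CPM in the deleted libraries. Deleted replicates 1, 3 and 4 were above the intact range and replicate 2 below it (log2 fold change 0.55 ± 0.34, adjusted p = 0.334). Snap25, its partner on the plasma membrane, had 0.0713, 0.0598, 0.587 and 0.654 CPM against 0.317, 4.96, 0.439 and 0.783 CPM. Deleted replicate 2 was the high one, and the log2 fold change was 2.10 ± 1.05 (adjusted p = 0.239) with it and 0.45 without it. Syn1, which tethers vesicles to the cytoskeleton, had 0.927 to 1.57 CPM in the intact and 1.19 to 1.91 CPM in the deleted libraries (log2 fold change 0.41 ± 0.30, adjusted p = 0.415).

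Summed by role, the transcription factors ranged from 53.7 to 120 CPM in the intact and from 5.91 to 24.5 CPM in the deleted libraries, in the intact ones mostly from Myt1. The RNA-binding genes summed to 105 to 127 CPM and 85.5 to 93.9 CPM, most of it from Rbfox2. The cytoskeletal genes summed to 1309 to 1406 CPM and 1046 to 1359 CPM, and the vesicle genes to 19.1 to 22.5 CPM and 12.0002 to 29.3 CPM. The medians of the fitted log2 fold changes were -2.03 for the 4 transcription factors tested and -1.496 for the 5 RNA-binding genes. They were -0.43 for the 13 cytoskeletal genes and 0.41 for the 5 vesicle genes. Each rests on few genes, and the 4 transcription factors ran from -3.32 to 1.27.

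A further 98 neuronal genes of the same 4 roles, none of them in the list above, were read in the same fit. Of 71 tested, 8 were lower (11.3%, against 2.80% of all genes tested) and 1 higher (against 5.10%), with a median log2 fold change of -0.15. By role the medians were -0.05 for 17 transcription factors, -0.06 for 8 RNA-binding genes, -0.24 for 26 cytoskeletal genes and -0.04 for 20 vesicle genes. The falling order of the medians by role in the first list was thus not seen here. Of the lower genes, 4 belong to the cytoskeleton and growth cone. Tubb2b, a neuronal beta-tubulin, went from 145 ± 28.6 to 72.0 ± 21.4 CPM (SD, n = 4 each, edgeR, adjusted p = 0.0389). Kif5c, a kinesin of axonal transport, went from 8.05 ± 0.645 to 2.21 ± 0.877 CPM (adjusted p = 0.0147). Basp1, a growth cone membrane protein, fell from 108 ± 24.5 to 26.0 ± 15.8 CPM (adjusted p = 0.0318), and Dpysl4, another collapsin response mediator, from 4.82 ± 1.43 to 1.97 ± 0.572 CPM (adjusted p = 0.0466).

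Another 3 of the lower genes organise the presynaptic active zone. Pclo, which encodes the scaffold piccolo, fell from 3.35 ± 0.694 to 0.588 ± 0.263 CPM (adjusted p = 0.0101). Rims1 fell from 1.62 ± 0.688 to 0.130 ± 0.160 CPM (adjusted p = 0.0333), and Bsn, the gene of bassoon, from 2.24 ± 0.757 to 0.565 ± 0.373 CPM (adjusted p = 0.0499). The 1 gene that rose was Syn2, a synapsin, from 17.5 ± 0.683 to 36.7 ± 13.4 CPM (adjusted p = 0.0405). Among 8 tested RNA-binding genes, Ptbp2, the neuronal form of a splicing repressor, fell from 174 ± 13.9 to 81.7 ± 21.2 CPM (log2 fold change -1.09 ± 0.19, adjusted p = 0.0147). None of 17 further transcription factors was called by edgeR, with 2 lower and 1 higher at an unadjusted p under 0.05, and DESeq2 called 1 lower and limma voom none. Per length the highest of these was Pou3f3, a POU factor of cortical neurons, in intact cells (42.0 RPKM, and 37.5 RPKM in deleted cells, adjusted p = 0.430). In deleted cells it was Hes6, which promotes neuronal differentiation (44.6 RPKM, and 35.0 RPKM in intact cells, adjusted p = 0.301).

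Pclo kept its call whichever library was left out, and the other 8 calls did not. Ptbp2 lost it without intact replicate 2, 3 or 4 (adjusted p up to 0.0563) and Kif5c without intact replicate 1, 2 or 4 (up to 0.0590). The remaining 6 lost it without any 1 of the 4 intact libraries, with Rims1 reaching 0.109. Basp1 (up to 0.101) also lost it without deleted replicate 4, Tubb2b (up to 0.111) without deleted replicate 1 or 3, and Bsn (up to 0.134) without 3 or 4. Dpysl4 (up to 0.141) and Syn2 (up to 0.124) lost it without deleted replicate 1, 3 or 4. Rims1 had a log2 fold change of -3.38 over all libraries and -4.30 without deleted replicate 3. With litter as a random block in limma voom, Basp1 (0.0532), Dpysl4 (0.0955), Rims1 (0.0574), Bsn (0.0928) and Syn2 (0.117) passed the adjusted threshold no longer, and with littermates summed Ptbp2 alone of the 9 did (0.0479).

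Factors that hold neuronal genes back in progenitors were read as a group of 14. Of these, 2 (14.3%) were higher and 0 lower in deleted cells, against 5.10% and 2.80% of all genes tested. Neither DESeq2 nor limma voom called a lower gene in this group, and 0 were lower at an unadjusted threshold of 0.05. Ctdsp1, a phosphatase that works with the repressor REST, rose from 24.4 ± 1.77 to 33.3 ± 2.94 CPM (log2 fold change 0.45 ± 0.12, adjusted p = 0.0479). Zfp36l1, a protein that destabilises transcripts, rose from 30.4 ± 3.80 to 64.2 ± 23.3 CPM (log2 fold change 1.08 ± 0.25, adjusted p = 0.0393). Both calls were lost without any 1 of the intact libraries and without deleted replicate 3, and that of Ctdsp1 also without deleted replicate 4, with adjusted p up to 0.160 for Ctdsp1 and 0.126 for Zfp36l1. With litter as a random block both were lost as well (0.117 and 0.111). With library totals in place of TMM factors, Ctdsp1 had an edgeR adjusted p of 0.248. Ctdsp1 was called in 7 of the 24 settings and Zfp36l1 in 15. Rest itself, looked up after the values were seen, had 49.2 to 72.0 CPM in the intact and 51.0 to 76.5 CPM in the deleted libraries (log2 fold change 0.12 ± 0.17, adjusted p = 0.693).

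Markers of other cells moved beside the neuronal genes. None of the 10 neural stem cell markers was called, and none passed an unadjusted threshold of 0.05, DESeq2 or limma voom. Their summed level was 5069 to 6135 CPM in the intact and 3638 to 5739 CPM in the deleted libraries. Over all genes tested, 5.10% were called higher and 2.80% lower. Sums take in every listed marker, also those with too few reads to be tested. Of 10 astrocyte markers 3 (30%) were higher, namely Aqp4, Aldoc and Sparcl1. The 10 summed to 1272 to 2428 CPM in the intact libraries and 9424, 973, 3152 and 2616 CPM in deleted replicates 1 to 4. Of 7 tested oligodendrocyte lineage markers 2 (28.6%) were lower, Gpr17 and Ugt8a, with sums of 1367 to 1728 CPM and 450 to 1696 CPM. DESeq2 and limma voom each called 3 astrocyte markers higher and 2 oligodendrocyte lineage markers lower as well. Of 3 tested mesenchymal markers 2 (66.7%) were higher, Acta2 and Thbs2. DESeq2 also called 2 higher, and limma voom called 0. The 10 listed markers summed to 3.03 to 4.49 CPM in the intact libraries and 5.71, 783, 22.6 and 242 CPM in deleted replicates 1 to 4. In deleted replicate 2 the untested Col3a1 and Dcn had 333.5 and 84.1 CPM. They had at most 0.359 and 0.087 CPM in any other library. Deleted replicate 2, with the highest Dcx, Rbfox3 and Snap25, also had the highest mesenchymal sum, and deleted replicate 1, with the highest Rbfox1 and Mapt, the highest astrocyte sum. Endothelial sums were 3.84 to 9.09 CPM and 2.66 to 21.6 CPM with 1 of 3 tested markers lower (33.3%, Kdr). Ependymal sums were 11.3 to 14.1 CPM and 20.2 to 36.5 CPM with 1 of 3 higher (33.3%, Foxj1). DESeq2 called 1 endothelial marker lower and 2 ependymal markers higher, and limma voom 1 and 1. Microglial sums were 2.84 to 3.71 CPM and 0.459 to 2.35 CPM, in the intact libraries mostly from P2ry12. P2ry12, the 1 of 8 that was tested, had 2.49 to 3.41 CPM and 0 to 2.09 CPM (edgeR, adjusted p = 0.205). The others had at most 4 reads in any library, with C1qa at 0 in all. The part of these cell markers, of the mitochondrial share and of the remaining Kat7 reads in the neuronal gene differences was not tested. As settings chosen after the data were seen, leaving out deleted replicates 1 and 3, with most of the remaining Kat7 reads, gave 11 neuronal genes of the list lower and 2 higher, and leaving out 1 and 4, with the highest mitochondrial shares, gave 7 lower and 0 higher. Over all genes the first of these settings called 1139 lower and 1160 higher of 13797, and the second 590 lower and 753 higher of 13884. The fit of all libraries called 378 lower and 688 higher of 13498.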

How the data were processed

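RNA sequencing libraries of neurosphere cultures from 8 fetuses were compared, 4 Kat7 deleted and 4 Kat7 intact. Per the labels, total RNA was purified with a Qiagen kit, polyadenylated RNA was made into Illumina TruSeq libraries and read as 100 bp single ends. The authors deposited whole-number read counts per Entrez gene, made with featureCounts on mm10 after base calling with CASAVA 1.8.2, per the submitters' processing notes; the aligner and the strand setting are not given in the sources used here. Gene lengths come from the deposited table. Names, coordinates and promoters come from RefSeq GRCm38.p6, which matched 25275 of 27179 genes, and exon overlaps from GENCODE.

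Genes that passed filterByExpr (minimum count 10, 13498 genes) were fitted with edgeR 4.0.16 (R 4.3.3), with TMM factors and robust quasi-likelihood, genotype as the only term, and Benjamini-Hochberg adjustment over all genes tested. CPM uses the TMM-scaled library sizes, RPKM divides CPM by length in kilobases, and log2 CPM has a prior count of 2. The Kat7 level was tested by exact permutation (scipy 1.17.1). The fit was tested on simulated counts. Depth was 10687817 to 22444359 counts per library, and limits from a count of 0 cover counting error only.

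The neuronal genes and all lists were chosen with earlier results of these data known, so no list has a test of its own. Every listed gene is given by its values. Full statistics are given for called genes and for the one with the highest level per length in each role. Of the other genes, called ones are named, up to 4 per list and direction, and where none was called the highest per length in each genotype. Alternatives changed the scaling, the test (DESeq2 1.42.0, limma 3.58.1), the filter, the treatment of litters and the libraries used, in 23 settings.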

Additional observations from a re-analysis of the deposited data

Results flagged for a closer look

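Among 58 groups of 4 libraries examined, over the tested neuronal genes, Kat7 and Elavl1 on the log2 CPM scale, 3 held a library far from the other 3, where the gap to its nearest neighbour divided by the range of the group exceeded Dixon's critical value for 4 samples. Chance alone gives about 1 in 20 such groups. Dcx in deleted replicate 2, at 100.6 CPM against 0.127 to 0.329 CPM in the other deleted libraries, had a ratio of 0.901. Stmn1 in intact replicate 2, at 60.0 CPM against 53.9 to 54.7 CPM, had a ratio of 0.864. Rbfox2 in intact replicate 3, at 69.8 CPM against 78.7 to 80.6 CPM, had a ratio of 0.832.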

How the results depend on the processing

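Of the 6 neuronal genes called, Crmp1 passed in all 24 settings, Elavl3 in 23 and Neurod1 in 22, Elavl2 in 18, Elavl4 in 14 and Myt1 in 13. No setting turned the direction of any of the 6. The count called lower was 1 with littermates summed, 2 with the replicate block and 11 without deleted replicates 1 and 3 (added after seeing the data), with 3 to 9 when a single library was left out. The count called higher was 1 with DESeq2 and 2 without deleted replicates 1 and 3, and 0 to 1 with a single library left out. The median log2 fold change of -0.47 was -1.02 at a minimum count of 30, where fewer genes were tested, -0.94 without deleted replicates 1 and 3, -1.16 without 1 and 4, and -0.85 to -0.44 with a single library left out.

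Of the further neuronal genes, 8 called lower became 15 with voom sample weights, 4 with litter as a random block, 1 with littermates summed, 4 with the replicate block, 5 with no filter, 17 without deleted replicates 1 and 3, and 1 to 11 with a single library left out. The 1 called higher became 5 with DESeq2, 0 with voom, 2 with sample weights, 0 with the litter block, littermates summed or the replicate block, 5 without deleted replicates 1 and 3, and 0 to 4 with a single library left out. Genes called in all numbered 1066, and 673 with library totals, 2203 with DESeq2, 2307 with sample weights, 422 with the litter block, 193 with littermates summed, 319 with the replicate block, 2299 without deleted replicates 1 and 3, and 189 to 2182 with a single library left out. The Kat7 difference ranged from -6.22 to -3.89 with a library left out, at p = 0.0571 in the exact permutation test, the smallest that 4 against 3 allows.

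No gene among those whose sign turned was called over all libraries. Rbfox1 was -0.31 with sample weights, -1.68 without deleted replicates 1 and 3, -0.071 without 1 and 4, and -0.59 to 2.44 with a single library left out. Rbfox2 was 0.047 without deleted replicates 1 and 3. Dcx was -0.15 with voom, -0.78 with sample weights, and -2.11 to 5.11 with a library left out. Mapt was -0.0068 with library totals, -0.58 with voom, -0.50 with sample weights, -0.54 with the litter block, -0.67 with the replicate block, -1.89 without deleted replicates 1 and 3, -1.16 without 1 and 4, and -1.16 to 0.59 with a library left out. Gap43 was 0.16 without deleted replicates 1 and 3, and -0.81 to 0.035 with a library left out. Nefl was -0.51 with voom, -0.47 with sample weights, -0.69 with the litter block, -0.17 with littermates summed, -0.33 with the replicate block, -1.28 without deleted replicates 1 and 4, and -1.07 to 0.56 with a library left out. Apart from the smaller sets of genes or libraries that some settings use by construction, the cause was not tested.

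Replicate numbers in the labels mark no shared animal or litter between genotypes, so the numbers were not taken as pairs. Deviations of same-numbered libraries had correlations of 0.096, 0.221, 0.110 and 0.331, all positive. Most correlations between different numbers were negative. Intact replicates 1 and 3 correlated best with deleted replicates 3 and 1 (0.163 and 0.251), and the other intact libraries with their own number. Whether same-numbered libraries shared a step of the work was not tested. Within litters the consensus correlation was 0.408. With 4 libraries a genotype and 1 read at 0.0436 to 0.0918 CPM, 10 of the 37 neuronal genes had too few reads to be tested.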

Other observations

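Over the 27 tested neuronal genes, 2 intact libraries differed by a median of 0.20 to 0.36 on the log2 CPM scale, depending on the pair, and 2 deleted libraries by 0.69 to 1.55, against 0.15 to 0.23 and 0.32 to 0.58 over all genes. The same comparison was made within a litter for the littermates of each genotype. Intact replicates 1 and 2 differed by a median of 0.31, with 2 genes more than 1 log2 unit apart. Deleted replicates 3 and 4 differed by 0.69, with 9 genes more than 1 log2 unit apart, among them Myt1 (21.9 and 3.57 CPM), Syp (4.28 and 0.609 CPM) and Dpysl5 (4.83 and 0.174 CPM). These 2 libraries also differed in remaining Kat7, at 13.9 and 0.087 CPM, and in the share of mitochondrial counts, at 17.1% and 34.4%. No test was made of these differences, since each genotype has a single litter with 2 libraries.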
